A study of Mus musculus with 2 samples.

Results

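In blood monocytes of mice, 2556 open chromatin regions lay in the first introns of protein-coding genes, of 27898 open regions in all on chromosomes 1 to 19 (9.16%). The starting set was the conservative peak set that the authors made from both replicates, keeping peaks whose rank was reproducible by the irreproducible discovery rate (IDR). Its 39192 peaks were merged where they overlapped. A region counted as a first-intron region when it lay over 1 kb from every protein-coding transcription start site (TSS), its summit touched no annotated exon, and its summit lay in the first intron of the longest protein-coding transcript of a gene. These regions sat in 1496 host genes. Of the other regions, 4870 (17.5%) lay in later introns, 8796 (31.5%) outside the longest transcripts, 1370 (4.91%) in exons and 10306 (36.9%) within 1 kb of a TSS.

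The cells were primary monocytes from peripheral blood of C57BL/6J mice of 5 to 6 weeks, taken as 2 biological replicates of 50000 cells each, with no treatment, mutant or control group. How the monocytes were isolated is not given in the sources used here. Open chromatin was mapped by ATAC-seq, in which the Tn5 transposase cuts and tags DNA that is free of nucleosomes. Both replicates carry 1 donor identifier, and nothing in the labels tells whether they were separate animals, and differences between them may reflect technique alone. Depth is unknown, since peak lists and no read counts were used. Over 2 replicates an exact paired permutation test cannot go below p = 0.5, so values are given per replicate and no test was run.

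An intron is transcribed and then spliced out, and the first intron follows the exon that holds the start of the transcript. First introns of mammalian genes are often long and hold many enhancers, stretches of DNA that bind transcription factors and act on the promoter of their own or of a neighbouring gene. In monocytes such enhancers are bound by PU.1, an ETS factor, together with C/EBP, RUNX, AP-1, IRF and KLF factors, each of which reads a short string of bases.

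The sequences below are 201 bases centred on the summit, read 5′ to 3′ on the plus strand of the mm10 reference (GRCm38.p6). They show host genes of myeloid cells first and then some of the strongest first-intron regions. Capitals mark matches on either strand to 6 strings: GAGGAAGT (PU.1), GAANTGAAA (PU.1 with IRF), TTGCNNAA (C/EBP), TGANTCA (AP-1), TGTGGTT (RUNX) and CCACNCCC (KLF).
Spi1, chr2:91089110-91089310: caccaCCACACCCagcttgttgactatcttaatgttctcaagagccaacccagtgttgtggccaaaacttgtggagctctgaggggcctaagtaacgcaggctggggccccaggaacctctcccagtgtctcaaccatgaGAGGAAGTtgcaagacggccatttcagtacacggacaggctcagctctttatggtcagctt
Cx3cr1, chr9:120058839-120059039: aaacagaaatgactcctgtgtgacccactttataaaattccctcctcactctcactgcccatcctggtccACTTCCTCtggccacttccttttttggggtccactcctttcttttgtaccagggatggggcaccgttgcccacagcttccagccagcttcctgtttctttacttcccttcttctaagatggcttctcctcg
Cd36, chr5:17880065-17880265: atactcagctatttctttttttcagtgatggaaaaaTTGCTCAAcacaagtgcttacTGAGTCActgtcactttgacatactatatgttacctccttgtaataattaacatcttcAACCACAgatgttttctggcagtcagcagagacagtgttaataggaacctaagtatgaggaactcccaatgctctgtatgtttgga
Fli1, chr9:32500964-32501164: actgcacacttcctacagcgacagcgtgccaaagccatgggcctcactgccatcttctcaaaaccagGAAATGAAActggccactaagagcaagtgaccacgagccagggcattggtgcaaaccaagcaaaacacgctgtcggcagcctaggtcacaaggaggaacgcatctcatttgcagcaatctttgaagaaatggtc
Irf2, chr8:46778174-46778374: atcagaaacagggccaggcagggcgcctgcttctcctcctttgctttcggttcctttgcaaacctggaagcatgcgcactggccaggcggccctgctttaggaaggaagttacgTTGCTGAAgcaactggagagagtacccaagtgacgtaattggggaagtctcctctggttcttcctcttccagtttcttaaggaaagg
Lyn, chr4:3682948-3683148: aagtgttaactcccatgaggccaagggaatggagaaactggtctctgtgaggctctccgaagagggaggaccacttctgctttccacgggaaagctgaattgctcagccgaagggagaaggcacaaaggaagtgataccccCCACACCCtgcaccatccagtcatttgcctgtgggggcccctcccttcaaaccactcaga
Ptk2b, chr14:66264771-66264971: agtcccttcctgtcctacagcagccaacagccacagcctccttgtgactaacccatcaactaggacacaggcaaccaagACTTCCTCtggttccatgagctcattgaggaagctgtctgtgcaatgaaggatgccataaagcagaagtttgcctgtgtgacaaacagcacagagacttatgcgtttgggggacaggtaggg
Gpr137b, chr13:13378558-13378758: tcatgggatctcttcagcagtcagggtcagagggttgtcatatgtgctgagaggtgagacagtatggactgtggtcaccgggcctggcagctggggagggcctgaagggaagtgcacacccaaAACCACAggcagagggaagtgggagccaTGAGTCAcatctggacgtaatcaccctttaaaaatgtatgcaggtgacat
Entpd1, chr19:40708249-40708449: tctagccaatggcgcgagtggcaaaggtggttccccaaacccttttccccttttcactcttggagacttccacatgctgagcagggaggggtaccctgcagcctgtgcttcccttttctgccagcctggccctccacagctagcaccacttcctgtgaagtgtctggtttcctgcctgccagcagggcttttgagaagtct
Sos1, chr17:80468547-80468747: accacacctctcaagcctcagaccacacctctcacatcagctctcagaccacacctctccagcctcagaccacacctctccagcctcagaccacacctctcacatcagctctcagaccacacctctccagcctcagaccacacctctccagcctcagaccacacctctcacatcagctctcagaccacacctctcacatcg
4931414P19Rik, chr14:54603410-54603610: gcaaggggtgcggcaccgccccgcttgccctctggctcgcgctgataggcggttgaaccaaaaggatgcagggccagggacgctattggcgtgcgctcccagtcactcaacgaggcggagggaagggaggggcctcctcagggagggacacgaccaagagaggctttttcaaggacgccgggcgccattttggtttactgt
The Cd36 window holds 3 of the strings, those of C/EBP, AP-1 and RUNX, and the Spi1 and Gpr137b windows hold 2 each. The windows of Entpd1, Sos1 and 4931414P19Rik, 3 of the strongest regions, hold none of the 6. The Sos1 window is built of short repeated units: shifted by 47 bases it matched itself at 70.1% of positions, and in the Spi1 window the best shift gave 32.2%. The window of 4931414P19Rik has 15 CpG dinucleotides and 63.7% GC, against a median of 3 CpG and 50.2% GC over all first-intron windows. A match describes the letters in a window and is not by itself a bound site.

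The best-ranked first-intron regions had higher folds than the typical one. The regions are ranked here by the −log10 p of their peaks in each replicate's own pseudoreplicated set, and a fold is the authors' enrichment of a peak over background. The region in the first intron of 4931414P19Rik, at chr14:54603129-54603714, ranked first, with a fold of 15.3 in replicate 1 and 14.3 in replicate 2 (mean 14.8 ± 0.712, SD, n = 2). The region of Sos1, which activates Ras, had folds of 13.6 and 12.7 in replicates 1 and 2 at chr17:80468359-80469039. Notch2, a receptor of the Notch pathway, had 11.9 and 11.8 at chr3:98046331-98046827, near the end of its intron. Gab2, an adaptor protein of receptor signalling, had 12.3 and 12 at chr7:97210993-97211636, 130 kb from the TSS. The replicates gave close values for these 4 regions, all more than 2 times the median fold over first-intron regions, which was 5.55 in replicate 1 and 5.36 in replicate 2. The ranking used the same replicate sets, so high folds follow in part from that choice. The rest of the 10 best-ranked regions lay in Smo, Entpd1, Ndst1, Gpr137b, Adipor2 and Pgs1, with mean folds of 9.04 to 13.3, and all 10 were in the thresholded sets of both replicates. Those of Ndst1, Gpr137b and Pgs1 did not reach 2 times the median fold in either replicate. The highest fold of any first-intron region in the conservative set, 17.7, belonged to a region outside these 10.

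Entpd1 was also among the genes with the most regions. It encodes CD39, an enzyme at the cell surface that breaks down extracellular ATP, and its first intron of 98.6 kb held 10 open regions, of which 7 were found in the thresholded set of replicate 1 and 6 in that of replicate 2. The strongest, at chr19:40708079-40708545, lay 96.0 kb from the TSS and had folds of 14.1 in replicate 1 and 12.4 in replicate 2. The other 9 Entpd1 regions had folds of 3.97 to 8.39 in the conservative set, so a single region at the far end of the intron stood out. Cmip, the c-Maf inducing protein, had 11 regions over 120 kb with folds of 2.95 to 6.52. Rapgef1, an exchange factor for Rap GTPases, had 10 regions over 59.1 kb with folds of 3.98 to 8.83.

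The other genes near the top of this ranking have varied roles. Wipf1, which binds the Wiskott-Aldrich syndrome protein, had 9 regions. Nedd9, a scaffold protein of focal adhesions, Prkce and Prkch, both protein kinases C, Ankrd44 and Ext1, an enzyme of heparan sulfate synthesis, had 8 each. Ptk2b, the adhesion kinase Pyk2, had 7 regions, and all 7 were in the thresholded set of replicate 1 and 6 in that of replicate 2. Its region of highest fold, at chr14:66257572-66258033, had folds of 8.74 in replicate 1 and 9.40 in replicate 2. Tnfaip8 on chromosome 18 had 9 regions in an intron of 111 kb.

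The largest count belonged to a gene model and not to a gene of known role. Gm20388, on chromosome 8, is annotated as protein-coding with a first intron of 4.38 Mb that spans 71 other protein-coding genes, and 70 regions were assigned to it. Of these, 30 were found in the thresholded set of replicate 1 and 28 in that of replicate 2. Without Gm20388 there were 2486 first-intron regions.

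**Figure D1:**
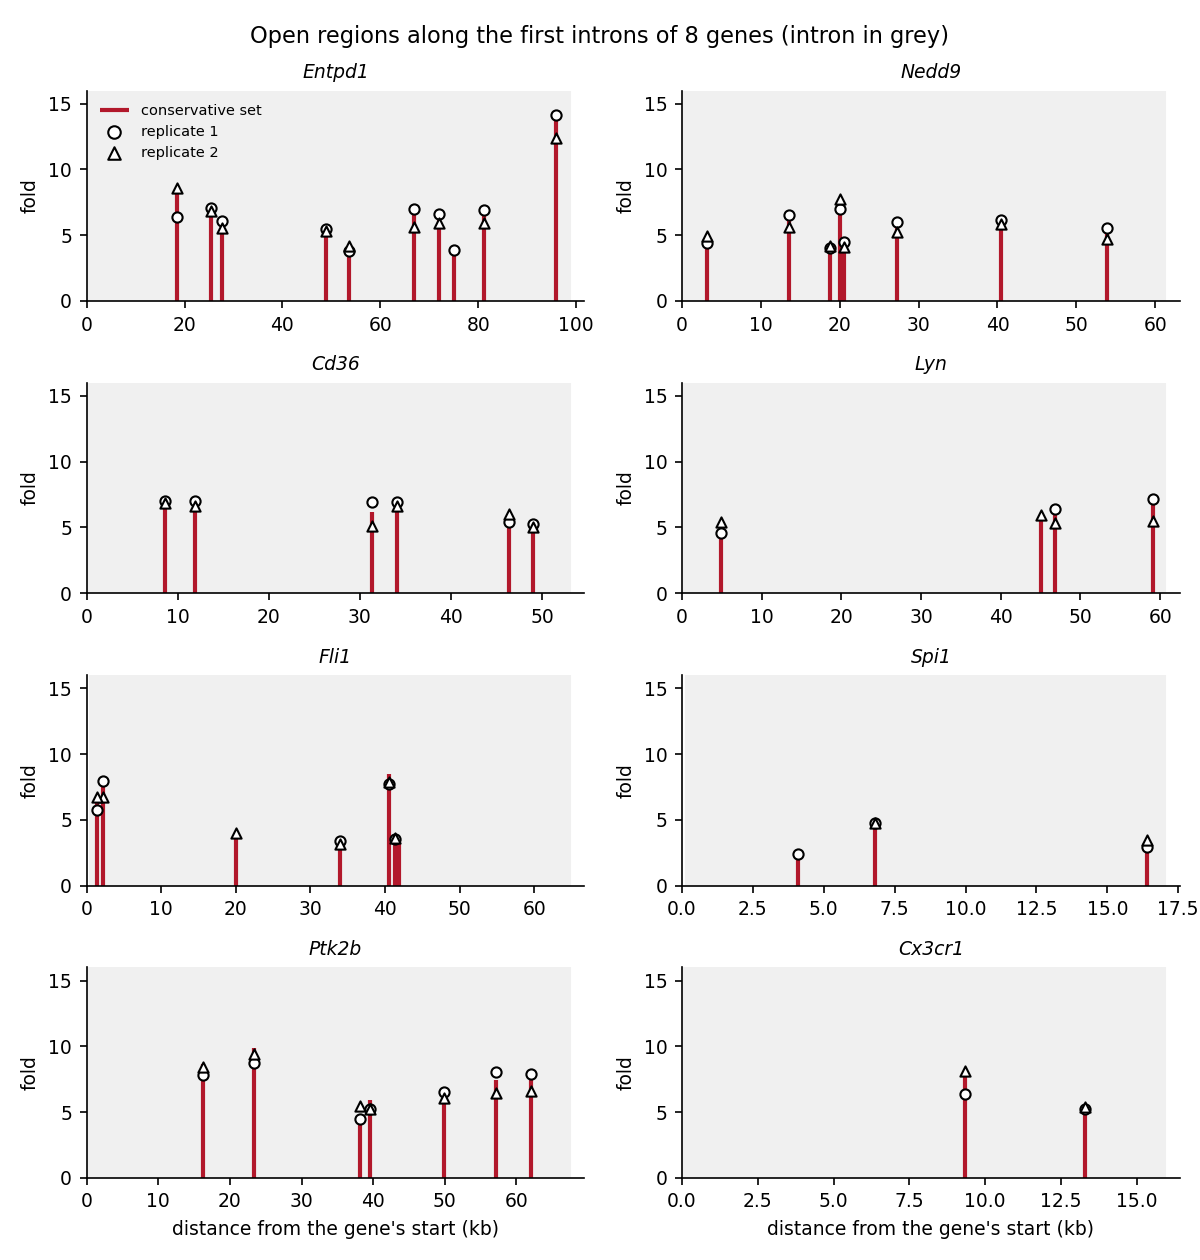
Open regions along the first introns of 8 host genes, with the distance from the TSS of the longest transcript in kb on the x axis and the fold enrichment on the y axis. Red lines give the conservative set, circles replicate 1 and triangles replicate 2 in their own pseudoreplicated sets, and grey the intron. The Entpd1 region at 96.0 kb has the highest fold shown, and the 6 Cd36 regions lie close together in height.

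First-intron regions were frequent among transcription factor genes of the myeloid lineage. Of the 32 such genes that had first-intron sequence over 1 kb from a TSS, 19 (59.4%) held at least 1 region, and over all 14063 genes with such sequence the share was 10.6%. The 19 genes held 52 regions, or 88.7 per Mb, where all genes had 11.4 per Mb. In the replicates' thresholded sets the density was 39.2 and 35.8 per Mb for these genes and 6.07 and 6.14 per Mb for all genes. Members of the list were chosen for their known role in monocytes, with earlier results of these data known. Of the 32, 28 had an open promoter. The median first intron of the list was 14.9 kb, against 5.70 kb over all genes. Among all genes with an open promoter and a first intron of 10 to 20 kb, 21.9% held a region.

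Fli1, an ETS factor of blood cells, had 7 regions, of which 3 stood in the thresholded sets of both replicates. Its strongest, at chr9:32500817-32501354, had folds of 7.74 in replicate 1 and 7.85 in replicate 2 and holds the GAANTGAAA match printed above. Klf13 also had 7 regions, with folds of 3.19 to 6.39, and 4 of them lay within 2 kb of each other. Foxp1, a forkhead factor, had 5 regions. Etv6, an ETS repressor, Irf2, an interferon regulatory factor, and Runx3 had 3 regions each. The best Irf2 region, at chr8:46777874-46778741, had folds of 9.70 and 8.58 in replicates 1 and 2.

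Spi1, which encodes PU.1, had 3 regions in a first intron of 16.9 kb. The region at chr2:91089074-91089623, 6.82 kb from the TSS, had folds of 4.77 in replicate 1 and 4.79 in replicate 2 and was in both thresholded sets. The other two had folds of 2.16 and 3.39 in the conservative set and were in neither thresholded set. The value of 2.16 was the lowest fold of any first-intron region. Ikzf1 and Mef2a had 1 region each, and Nr4a1, an orphan nuclear receptor, had 2, of which 1 was in the thresholded set of replicate 1 and 0 in that of replicate 2.

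Several factor genes had no first-intron region, and their gene structure differs. Runx1 has a first intron of 0.229 kb, all of it within 1 kb of the TSS, and held 7 regions in later introns. Klf4 has a first intron of 0.116 kb, and Cebpb has none. Irf8 kept 430 bp of first-intron sequence over 1 kb from a TSS, with no region in it. Irf8 lies inside the first intron of Gm20388, so regions around it, such as chr8:120715196-120715634, were counted under Gm20388. Ets1 kept 30613 bp and Zeb2 2110 bp, and each had no first-intron region and 1 region in a later intron.

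Of 19 surface receptor and identity genes of monocytes with first-intron sequence, 10 (52.6%) held a region, 21 regions in all, at 145 per Mb. The replicates' own sets gave 89.6 and 110 per Mb. Over all genes the share was 10.6%, at 11.4 per Mb, and over genes with an open promoter 15.3%, at 21 per Mb. Of the 19 genes, 16 had an open promoter. The list had a median first intron of 2.93 kb and 0.145 Mb of usable sequence in all. Cd36, a scavenger receptor for oxidised lipoproteins, had 6 regions in a first intron of 53.0 kb, and all 6 were in both thresholded sets. Their folds ran from 5.28 to 7.01 in replicate 1 and from 5.01 to 6.84 in replicate 2, so they were of nearly equal height. All 6 held a string of the myeloid set within 100 bp of the summit: 4 had TTGCNNAA and 2 had GAGGAAGT. Over all first-intron windows 15.8% held TTGCNNAA, 13.2% held GAGGAAGT and 46.0% held none of the 6 strings.

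Cx3cr1, the fractalkine receptor of monocytes, had 2 regions, both in both thresholded sets. The region at chr9:120058399-120059159 had folds of 6.38 in replicate 1 and 8.12 in replicate 2, and that at chr9:120054672-120055502 had 5.21 and 5.35. The first thus varied more between replicates than the second. Csf1r, which encodes the M-CSF receptor, had 1 region with folds of 4.97 and 4.41, and Itgb2, the common beta chain of the leukocyte integrins, had 3. Ccr2, Fcgr1, Itgam, Itgal, Csf2rb and Tlr4 had no first-intron region, though the promoters of all but Ccr2 were open. The usable first-intron sequence was 0 bp in Ccr2 and Fcgr1, 19 bp in Itgal and 947 bp in Itgam, and 8001 bp in Csf2rb and 5280 bp in Tlr4.

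The calls for 7 of these and other genes depend on which transcript is taken as the longest. With the longest by summed exon length in place of the longest span, Cd36 had 2 first-intron regions, Spi1 had 1, and Cx3cr1, Hnf4a, Mmp9, Per1 and Rpl3 had 0. Smaller changes were those of Entpd1 from 10 to 7 regions, Foxp1 from 5 to 4 and Gm20388 from 70 to 74. The regions themselves are unchanged by this, and only their place in the gene model differs.

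Signalling and cytoskeleton genes have long first introns, and many held a region. A list of signalling downstream of Src-family kinases and of immunoreceptor tyrosine activation motifs (ITAMs), which takes in their adaptors, exchange factors and lipid kinases, had 18 of 29 genes (62.1%) with a region, at 43.5 per Mb. Its median first intron was 20.7 kb, and 27 of the 29 genes had an open promoter. Lyn, a Src-family kinase, had 4 regions along 60.4 kb with folds of 5.24 to 7.12, of which 3 were in the thresholded set of each replicate. Pik3r5, a regulatory subunit of phosphoinositide 3-kinase gamma, also had 4. Of 28 genes of actin, adhesion and migration, 17 (60.7%) held a region, at 46.3 per Mb, led by Nedd9 with 8 and Elmo1, an activator of Rac, with 6. The median first intron of that list was 29.3 kb, and 23 of the 28 had an open promoter. The share over all genes was 10.6%, and over all genes with an open promoter and a first intron of 20 to 50 kb it was 38.7%. Innate sensing and inflammation genes had 8 of 21 (38.1%), among them Il17ra with 3 regions and Nod1 with 2.

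Lists of other blood cells held few genes with usable sequence, and their order turns on the measure. B cell genes had 4 of 13 (30.8%), with Bach2 at 4 regions and Fcrla at 1. T cell genes had 3 of 15 (20%), NK cell genes 3 of 11 (27.3%), neutrophil genes 2 of 8 (25%) and platelet and erythroid genes 1 of 5 (20%). These shares were below those of the 5 lists described before and above the 10.6% of all genes, and they rest on 1 to 4 genes each. Per Mb, B cell genes had 30.7 regions and T cell genes 16.6, while neutrophil genes had 104, platelet and erythroid genes 89.5 and NK cell genes 68.7, over short introns with 1 to 3 regions in all. In the replicates' own thresholded sets the T cell genes with a region were 1 in replicate 1 and 2 in replicate 2, and the platelet and erythroid genes 0 and 1. Neuron genes had 0 of 15 over 2.85 Mb of first-intron sequence, the largest stretch of any list, and muscle genes had 0 of 11 over 0.164 Mb. Only 1 neuron gene and 1 muscle gene had an open promoter, and the median first introns were 108 and 1.53 kb. Over all genes with no open promoter, 13.5% held a region where the first intron was over 100 kb. Among all genes with first introns up to 2 kb, 0.575% did. Tissue macrophage genes had 0 of 11 in the conservative set and 1 region in the thresholded set of replicate 1.

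Few ribosomal protein genes could be hosts. Only 3 of 25 ribosomal protein genes had usable sequence, and 2 of them held a region, Rps14 with 3 and Rpl3 with 1. The longest annotated transcript of Rps14 gives it a first intron of 27.3 kb. Of the circadian, metabolic and ubiquitous genes, whose median first intron was 7.14 kb, 2 of 14 (14.3%) held a region, Pfkfb3 with 3 and Per1 with 1. All 14 had an open promoter. Of the hepatocyte genes 1 of 7 (14.3%) held a region, Hnf4a with 2, and 0 of the 7 had an open promoter. Both shares were near the 10.6% of all genes and rest on 1 or 2 genes.

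Defining markers of blood cells were checked against the label of the samples. Promoters were open at 9 of 10 monocyte markers, Ccr2 being the exception, and first-intron regions at 3 of the 5 with usable sequence. Promoters were open at 2 of 6 B cell markers (Pax5 and Cd79b), 1 of 8 T cell markers (Cd3d), 2 of 6 NK cell markers (Prf1 and Gzmb), 1 of 7 neutrophil markers (Mmp8) and 1 of 6 platelet and erythroid markers (Klf1). Among the markers of these other cells, only Ms4a1 of B cells had a first-intron region. Few of them could have one: usable sequence was there in 4 B cell, 5 T cell, 4 NK cell, 3 neutrophil and 1 platelet and erythroid markers. Whether other blood cells contributed to the first-intron set was not tested.

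Per length of sequence, first introns were more densely open than later introns. Usable first-intron sequence, over 1 kb from every TSS and outside exons, came to 217 Mb and held 11.8 regions per Mb, while 618 Mb of later introns held 7.88 per Mb, a ratio of 1.5. The replicates' own thresholded sets gave 6.26 against 3.92 per Mb in replicate 1 and 6.33 against 4.02 per Mb in replicate 2, ratios of 1.6 and 1.57. The excess was larger than the difference between replicates.

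Much of that ratio goes with distance from the TSS. Between 1 and 20 kb from the TSS first introns held 14.5 to 16 regions per Mb, and beyond 100 kb they held 4.52 per Mb. Later introns also fell with distance: 14.8 per Mb in first introns and 14.4 in later introns at 5 to 10 kb, 12 and 11.4 at 20 to 50 kb, and 4.52 and 4.07 beyond 100 kb. The replicates' own sets showed a wider gap at 5 to 10 kb, with 8.42 against 6.56 per Mb in replicate 1 and 8.25 against 6.96 in replicate 2 (ratios of 1.28 and 1.19). At 20 to 50 kb their ratios were 1.14 and 1.16, and at 50 to 100 kb 1.02 and 0.944. The distances of 2 to 5 kb (14.5 and 10.6 per Mb) and of 10 to 20 kb (15.7 and 12.5 per Mb) differed more. At 1 to 2 kb first introns had 16 and later introns 19.9 per Mb, from 168 and 53 regions, and the replicates did not keep that order: 9.54 and 9.41 per Mb in replicate 1, 8.97 and 10.5 per Mb in replicate 2. If first introns had held the later-intron density at every distance, 2319 regions would lie in them in place of 2556, a ratio of 1.10 (1.18 in replicate 1 and 1.16 in replicate 2).

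**Figure D2:**
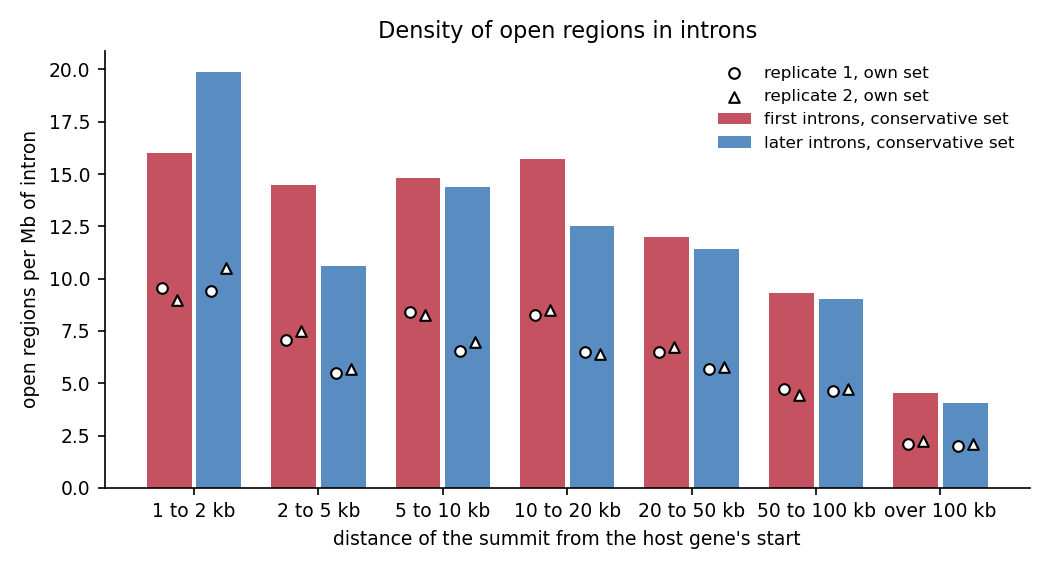
Open regions per Mb of usable sequence in first introns (red) and later introns (blue), by distance of the summit from the TSS of the host gene in kb. Bars give the conservative set, circles replicate 1 and triangles replicate 2 in their own thresholded sets. First introns hold 14.5 to 16 per Mb up to 20 kb and 4.52 per Mb beyond 100 kb, and the later introns 4.07 per Mb there.

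First-intron regions lay mainly in genes whose promoter was itself open. A promoter was called open where an open region lay within 1 kb of a TSS of the gene. Among 7027 genes with an open promoter 15.3% had a first-intron region, and among 7036 genes with no open promoter 5.94% did. Genes with an open promoter held 1895 of the regions (74.1%). Their first introns had 21 regions per Mb, against 4.97 per Mb where no promoter was open, a ratio of 4.23. The ratio was 4.25 in replicate 1 and 4.33 in replicate 2.

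Later introns showed the same contrast at a smaller size. They had 11.7 regions per Mb in genes with an open promoter and 4.56 per Mb in genes without, a ratio of 2.58, with 2.64 and 2.80 in replicates 1 and 2. In genes with no open promoter the first and later introns were thus nearly alike in density, at 4.97 and 4.56 per Mb, and in genes with an open promoter they stood at 21 and 11.7 per Mb. Distance from the TSS was not held equal in these values.

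Intron length sorted the genes further. With first introns of 2 to 5 kb, 3.85% of genes with an open promoter and 1.93% of genes without had a first-intron region. At 20 to 50 kb the shares were 38.7% and 15.8%, and above 100 kb they were 68.3% of 101 genes and 13.5% of 319 genes. Per Mb, genes with an open promoter had 15.3 to 24.4 regions in every length class, and genes without fell to 1.89 above 100 kb.

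**Figure D3:**
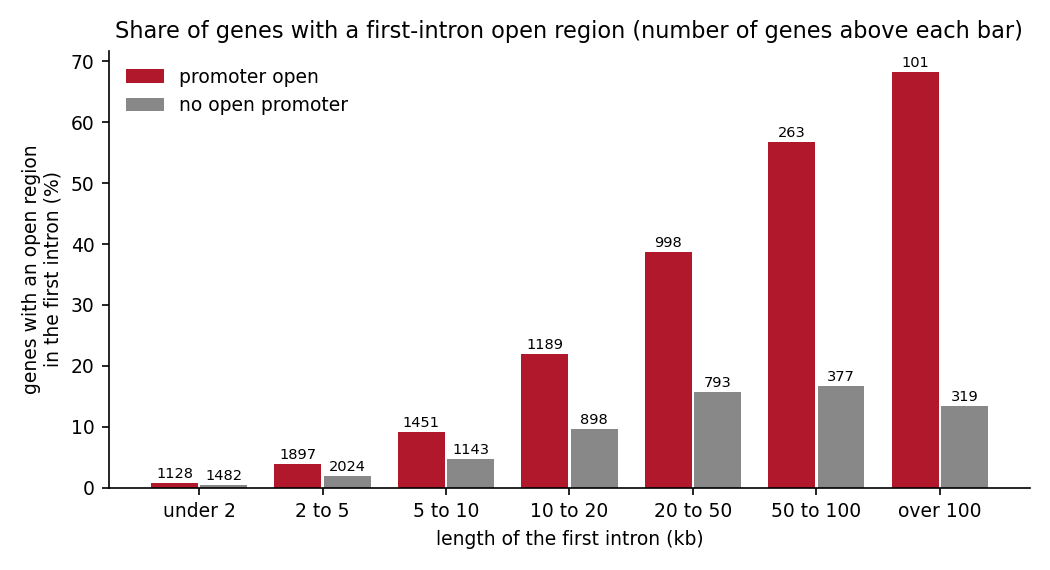
Share of genes with at least 1 open region in the first intron, in percent, by length of that intron in kb, for genes with an open promoter (red) and with no open promoter (grey). Numbers above the bars give the genes in each class. The shares are 68.3% and 13.5% above 100 kb.

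Most host genes had a single region and few had many. Of the 1496 hosts, 996 had 1 region, 281 had 2, 98 had 3 and 121 had 4 or more. The 70 genes with 5 or more held 500 regions, 19.6% of the set, and had a median first intron of 87.2 kb, against 5.70 kb over all genes. Gm20388 was among them, with 70 of the 500 regions. In 569 hosts (38%) a later intron was open too, and 2771 genes in all had a region in a later intron. Of the 1496 hosts, 72.1% had an open promoter, against 47.3% of genes with no first-intron region. The 38% was not compared with other genes of like promoter state or intron length. Neighbouring regions of 1 gene, Gm20388 included, were a median 7.25 kb apart, and 394 of 1060 such neighbours (37.2%) were under 5 kb apart.

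Within the intron, the regions were spread along its whole length. Split into 10 equal stretches from the start, each stretch held 7.51% to 11.3% of the regions, with the fewest in the one nearest the TSS, where the 1 kb limit removes sequence. The median summit was 15.1 kb from the TSS (quartiles 6.07 and 35.8 kb). The nearest other open region was a median 5.41 kb away, against 8.95 kb for later-intron regions, and it was within 10 kb for 69.7% of first-intron and 53.2% of later-intron regions. At the limit of the rule, 68 regions at 1001 to 1200 bp from a TSS had a median fold of 4.95, and 88 regions in first introns at 801 to 1000 bp, just left out, had 4.90.

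First-intron regions were narrow and of moderate strength. Their median width was 379 bp, near the 374 bp of later introns and the 380 bp outside the longest transcripts, and 633 bp within 1 kb of a TSS. Their median fold was 5.75, against 6.04 in later introns, 6.21 outside the longest transcripts and 7.58 at TSSs. In the replicates' own thresholded sets the median was 6.51 against 6.86 in later introns for replicate 1, and 6.29 against 6.64 for replicate 2. The fold was lower near the TSS: regions 1 to 5 kb from it had a median of 5.05, and those at greater distances 5.73 to 6.12.

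Folds in the replicates were close, in a set that the authors had already chosen for ranks that agree between replicates. Of the 2556 regions, 2299 (89.9%) were found in the pseudoreplicated sets of both replicates, and over these the log2 folds had a Pearson correlation of 0.835 and a Spearman correlation of 0.815. Because of that choice, and since the regions share libraries and peak calling, these values describe the set and are no independent measure of reproducibility. The log2 fold in replicate 2 minus that in replicate 1 was a median -0.04 with an SD of 0.24, and in 0 of the 2299 did it pass 1 in size. By the stricter thresholded sets, 1000 regions (39.1%) were in both replicates, against 35.6% of later-intron regions and 50.3% of all regions, and 972 were in neither. Intronic regions and those outside the longest transcripts were split by −log10 p into 4 classes of equal size. Of the first-intron regions, 95% in the strongest class and 0.154% in the weakest were in both thresholded sets, against 93.3% and 0.155% of later-intron regions.

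Of the 19 strings searched, that of PU.1 had the highest ratio of summit to flank. GAGGAAGT lay within 100 bp of 13.2% of first-intron summits (338 regions) and in 1.58% of windows of equal size centred 500 bp to either side, a ratio of 8.35. The share was 13.1% in the thresholded set of replicate 1 and 13.7% in that of replicate 2, with flanks at 1.59% and 1.61%. The same letters written backwards were in 1.10% of windows. Over all open regions the share was 8.98%, in later introns 12.3% and at TSSs 4.0%. In the replicates' own thresholded sets later introns had the higher share, 14.2% in replicate 1 and 14.8% in replicate 2. The ratio of summit to flank in later introns was 9.88, also above that of first introns. Matches were most frequent at the summit itself, with 27.4 per 1000 regions in the central 20 bp and 1.17 and 0.782 at 500 bp before and after it.

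The string of PU.1 with IRF, GAANTGAAA, was in 5.75% of summits and 1.70% of flanks (3.87% of all regions). TTGCNNAA of C/EBP was in 15.8% and 7.81% (10.8% of all), and TGANTCA of AP-1 in 13.5% and 5.40% (8.53% of all). GCTGAGTCA, a MAF and BACH string that contains an AP-1 match, was in 1.72% and 0.235% (0.846% of all). TGTGGTT of RUNX was in 9.82% and 5.73% (7.23% of all), and CCACNCCC of KLF in 12.7% and 7.0% (13.3% of all). Each of these strings was thus more frequent at the summit than beside it, with PU.1 and MAF furthest from their flanks.

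Against later introns the C/EBP and AP-1 strings stood higher. TTGCNNAA was in 15.8% of first-intron and 12.6% of later-intron summits, and TGANTCA in 13.5% and 10.6%. In the replicates' own sets AP-1 gave 15.1% against 11.6% in replicate 1 and 14.6% against 11.7% in replicate 2, and C/EBP gave 15.3% against 15.0% and 16.5% against 14.7%. The AP-1 difference was thus present in both replicates, and the C/EBP difference in replicate 1 was small. The RUNX string was at 9.82% and 10.2%. No match to any of the 6 myeloid strings was found in 46.0% of first-intron windows, against 52.8% of later-intron windows.

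**Figure D4:**
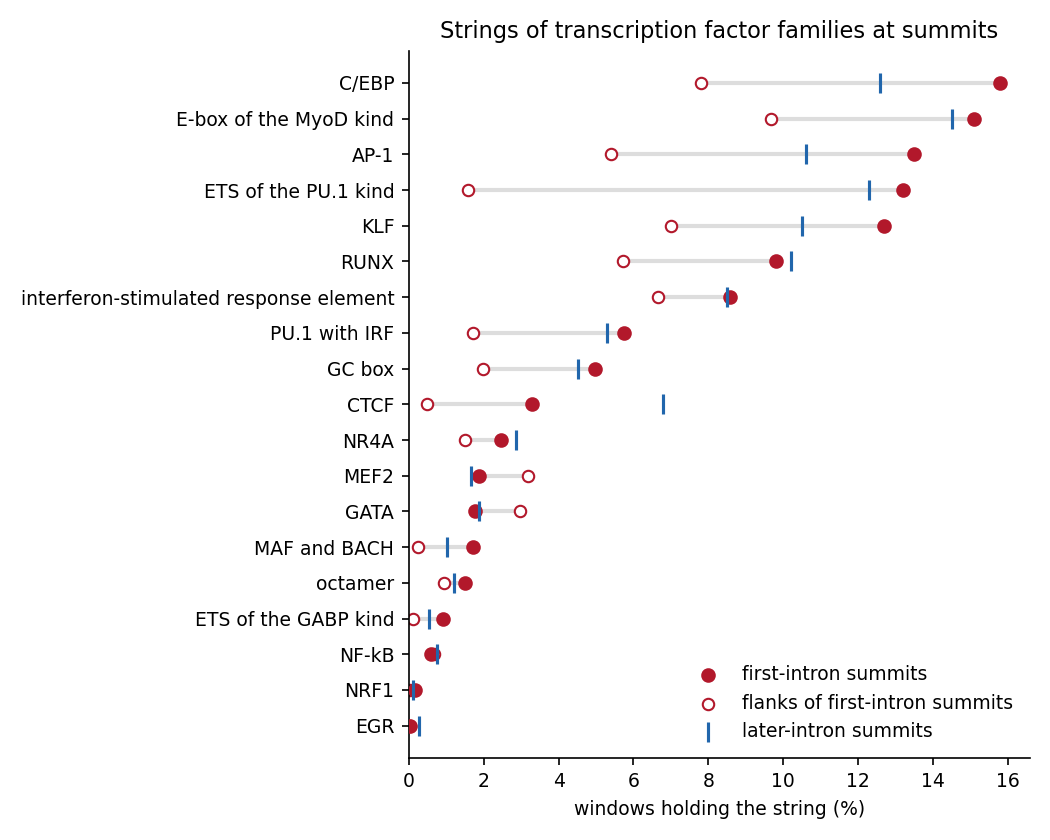
Share of windows reaching 100 bp to each side of their centre that hold each string, in percent, for first-intron summits (filled red), the flanks 500 bp to either side (open red) and later-intron summits (blue bars), by factor family. The PU.1 string stands at 13.2% at summits and 1.58% in flanks, and the CTCF string at 3.29% in first introns and 6.80% in later introns.

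The string of CTCF, a factor that bounds chromatin loops, was less frequent in first than in later introns. AGNNGGCGC was in 3.29% of first-intron summits, 6.80% of later-intron summits, 8.41% of those outside the longest transcripts and 8.36% of all regions, and in 0.489% of first-intron flanks. The replicates' thresholded sets gave 3.32% against 4.91% in replicate 1 and 2.48% against 5.03% in replicate 2. The gap was there at each distance from the TSS, with 3.73% against 9.55% at 1 to 10 kb, 2.98% against 7.91% at 10 to 50 kb, and 3.10% against 4.91% beyond 50 kb.

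Strings typical of promoters were rarer in first introns than near a TSS, and so they were in later introns. CCCGCCC, the GC box, was in 4.97% of first-intron summits, 38.9% of those near a TSS and 17.9% of all regions. CCGGAAGT, the ETS string of promoters, was in 0.900% against 8.32% near a TSS (3.68% of all), GCGCATGCG of NRF1 in 0.156% (1.24% of all) and CGTGGGCG of EGR in 0.0391% (0.961% of all). Later-intron summits held the GC box in 4.52%, CCGGAAGT in 0.534%, the NRF1 string in 0.123% and the EGR string in 0.267%. AGATAAG of GATA factors was in 1.76% of summits and 2.97% of flanks (1.51% of all), and TATTTTTA of MEF2 in 1.88% and 3.17% (1.15% of all), so both were less frequent at the summit than beside it. Written backwards, the letters were in 1.88% of summits for GATA and 0.822% for MEF2. In later introns the order was the same, with 1.87% of summits and 2.72% of flanks for GATA and 1.66% and 3.39% for MEF2. CAGCTG, an E-box read by MyoD and other basic helix-loop-helix factors, was in 15.1% and 9.68% (13.2% of all), a share at summits above that of PU.1. The string GAAANNGAA, the interferon-stimulated response element, was in 8.57% and 6.65% (6.78% of all), and its letters written backwards were in 8.33% of summits. GGGANTTTC of NF-kB was in 0.587% and 0.665% (0.799% of all), AAAGGTCA of NR4A in 2.46% and 1.49% (2.03% of all), and the octamer ATGCAAAT in 1.49% and 0.939% (1.23% of all).

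**Figure D5:**
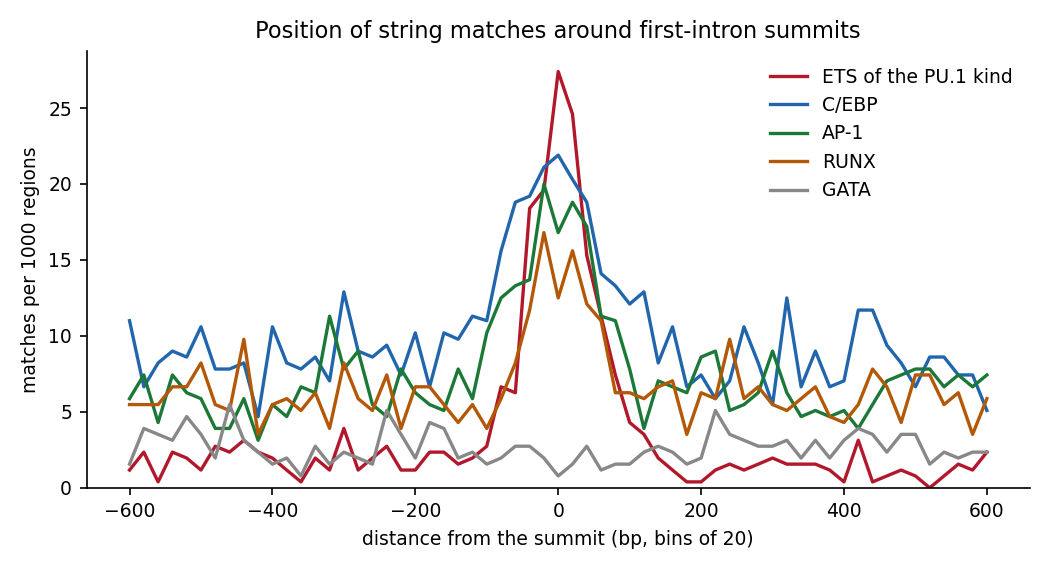
Matches per 1000 first-intron regions in bins of 20 bp, by distance from the summit in bp, for 5 strings. The PU.1 string reaches 27.4 at the summit, the C/EBP string 21.9 and the AP-1 string 16.8, and the GATA string has 0.782.

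Median GC within 100 bp of the summit was 50.2% in first introns, in later introns and outside the longest transcripts, 53.2% in exons and 62.7% near a TSS. Windows with 5 or more CpG made up 22.1% of first-intron regions, against 22.5% in later introns, 31.6% outside the longest transcripts and 46.8% in exons. Windows with 10 or more CpG made up 3.09% of first-intron regions, 2.51% of later-intron regions and 74.9% of those near a TSS. Of the first-intron regions 31 (1.21%) lay within 1 kb of the start of a long noncoding RNA, against 1.62% in later introns. The share was 4.83% outside the longest transcripts, 15.4% in exons and 6.75% over all regions. Summits in exons of noncoding genes were placed in the exon class, so the rule itself lowers the share in both kinds of intron.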

How the data were processed

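The deposited files were ATAC-seq peak lists on mm10, per the labels, from 2 monocyte replicates. Aligner, peak caller and versions: not given in the sources used here. One input to the sets goes undescribed in the deposited README. The fold of a peak, a linear ratio over background, its −log10 p and its IDR score are the authors' own values in the deposited lists. The authors made the conservative set from both replicates and a thresholded and a looser pseudoreplicated set for each replicate, per the deposited README. The number of peaks can move with depth, which is unknown.

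Overlapping peaks on chromosomes 1 to 19 were merged, keeping the highest fold, and the summit came from the peak of lowest p. GENCODE M21 gave the gene models, with the longest transcript taken by genomic span and exons taken from all annotated genes, and sequence was that of GRCm38.p6. Distance to a TSS was measured from the edge of the region. A region in first introns of more than 1 gene (58 of them) was given to the host with the nearest TSS, and 74 also lay in a later intron of another gene. Densities per list sum the sequence gene by gene, where overlapping introns count more than once.

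Genes named were the 12 with most first-intron regions, the hosts of the 10 best-ranked regions, up to 2 members of each of 16 lists and 28 fixed genes. Features singled out beyond these were chosen after their values were seen. The members and lists were chosen with earlier results of these data known. No p was computed. The class rules were tested on 10 simulated summits, of which 10 were put in their class. Alternatives were other peak sets, IDR scores, gene models, distances and windows. The software was numpy 2.4.6, pandas 2.3.3 and matplotlib 3.10.9 under Python 3.11.15.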

Additional observations from a re-analysis of the deposited data

How the results depend on the processing

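The count of 2556 first-intron regions was 5708 in the replicated and 5477 in the pseudoreplicated set of the series, 1700 at an IDR score of 830 or more and 1355 to 1370 in the set of a single replicate. It was 2247 to 2790 under the other alternatives. The share of all regions, 9.16%, was 10.4% and 10.6% in those looser sets, 8.26% at the stricter score and 7.74% to 7.86% in single replicates. It was 8.59% with the longest transcript by exon length, 9.54% with exons of protein-coding transcripts only, 10% and 8.05% with a TSS distance of 500 bp and 2 kb, 8.90% without regions also in a later intron and 8.91% without Gm20388, an alternative chosen after seeing the data. The density ratio of 1.5 was 1.53 in the IDR thresholded set, 1.43 and 1.47 in the looser sets, 1.55 at the stricter score, 1.57 to 1.6 in single replicates, 1.53 by exon length, 1.54 and 1.45 at 500 bp and 2 kb, 1.54 in genes with both kinds of intron and 1.16 within 50 kb of the TSS. The share of summits with GAGGAAGT, 13.2%, was 11.4% and 11.8% in the looser sets, 13.1% to 13.7% in single replicates, 9.78% within 50 bp, 14.6% within 150 bp and 1.10% for the reversed string. Of 48 named genes with a region, 41 kept their count within 1.5 times by exon length, 31 at the stricter score, and 26 and 21 in the sets of replicate 1 and replicate 2. These counts leave out Cd244a, Cd6, Gfi1b, Padi4, Prkcq and S1pr5, list members with a region that the naming rule also picked. The median fold of first-intron regions was 6.51 and 6.29 in the replicates' thresholded sets, against 4.79 and 4.57 in their pseudoreplicated sets. The cause of these shifts was not tested. No paired analysis was possible because there is 1 group.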
